A study of Mus musculus with 9 samples.

Results

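Genes of central carbon metabolism were compared between spleen B cells of p52Ki and WT mice: 43 named genes for glucose transporters, glycolysis, lactate handling, entry of pyruvate into mitochondria, the pentose phosphate pathway and the tricarboxylic acid (TCA) cycle. All 43 had a row in the deposited count table, and 41 were also among the 12849 genes of the deposited log2 table and so were tested. Ldhb and Slc16a3 had too few counts. RNA was sequenced from 5 p52Ki libraries, titled p52ki/ki, which denotes a homozygous knock-in at the gene for p52 (a DNA-binding NF-kB protein made from Nfkb2), and from 4 WT libraries. Every library was labelled as pre-germinal centre (pre-GC) B cells of the spleen. The sources used here do not state age, sex, immunisation, the sort or how the knock-in was built. They also do not say that each library is its own mouse, so every p-value reflects the scatter among these libraries, part of which may be technical.

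Glycolysis splits glucose into pyruvate in the cytosol and yields ATP quickly. Pyruvate is then either reduced to lactate and exported or admitted to mitochondria by pyruvate dehydrogenase, where the TCA cycle oxidises it, while the pentose phosphate pathway diverts glucose 6-phosphate to make NADPH and the ribose of nucleotides. Activated and dividing B cells take up more glucose than resting ones, and germinal centre B cells, which divide fast in a crowded site, rely on mitochondrial oxidation as well.

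Of the 41 genes tested, 7 fell (17.1%) and 0 rose in p52Ki cells (edgeR quasi-likelihood test, Benjamini-Hochberg adjusted over all genes), where 8.53% of all genes tested passed, 4.04% lower and 4.49% higher. The 7 were the glycolytic enzymes Tpi1, Pgam1, Eno1 and Pkm, the pyruvate dehydrogenase kinase Pdk3, the pentose phosphate enzyme Taldo1 and the TCA enzyme Fh1. At an unadjusted p under 0.05, 21 of the 41 were lower and 1 was higher, against 10.6% and 10.8% of all genes. The fitted log2 fold change was below 0 for 32 of 41 members (78.0%) and for 48.2% of all genes, with medians of -0.45 and 0.03. In 9 members every p52Ki library lay below every WT library, and in none did every p52Ki library lie above, against 6.53% and 7.30% of all genes. Among genes of at least 10 CPM in 4 libraries, 9 of 39 members fell, beside 5.65% of 9343 genes. With no filter on low counts 5 members fell (1.95% of all genes) and with DESeq2 size factors 6 (3.76%). Eno1 lost its call in both (edgeR adjusted p = 0.0557 and 0.0522), and Fh1 without the filter (edgeR adjusted p = 0.0536). DESeq2 called 12 members lower and 1 higher, and 6.0% of all genes lower. The edgeR count depended on single libraries. It was 1 without WT replicate 1, where 2.00% of all genes fell, 2 without WT replicate 3 (2.32%) and 3 without WT replicate 4 (2.02%). It was 2 without p52Ki replicate 1 (2.45%), 3 without p52Ki replicate 3 (2.09%) and 3 without p52Ki replicate 5 (2.41%). It was 5 without WT replicate 2 (2.88%), 7 without p52Ki replicate 2 (3.06%) and 9 without p52Ki replicate 4 (4.45%).

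**Figure D1:**
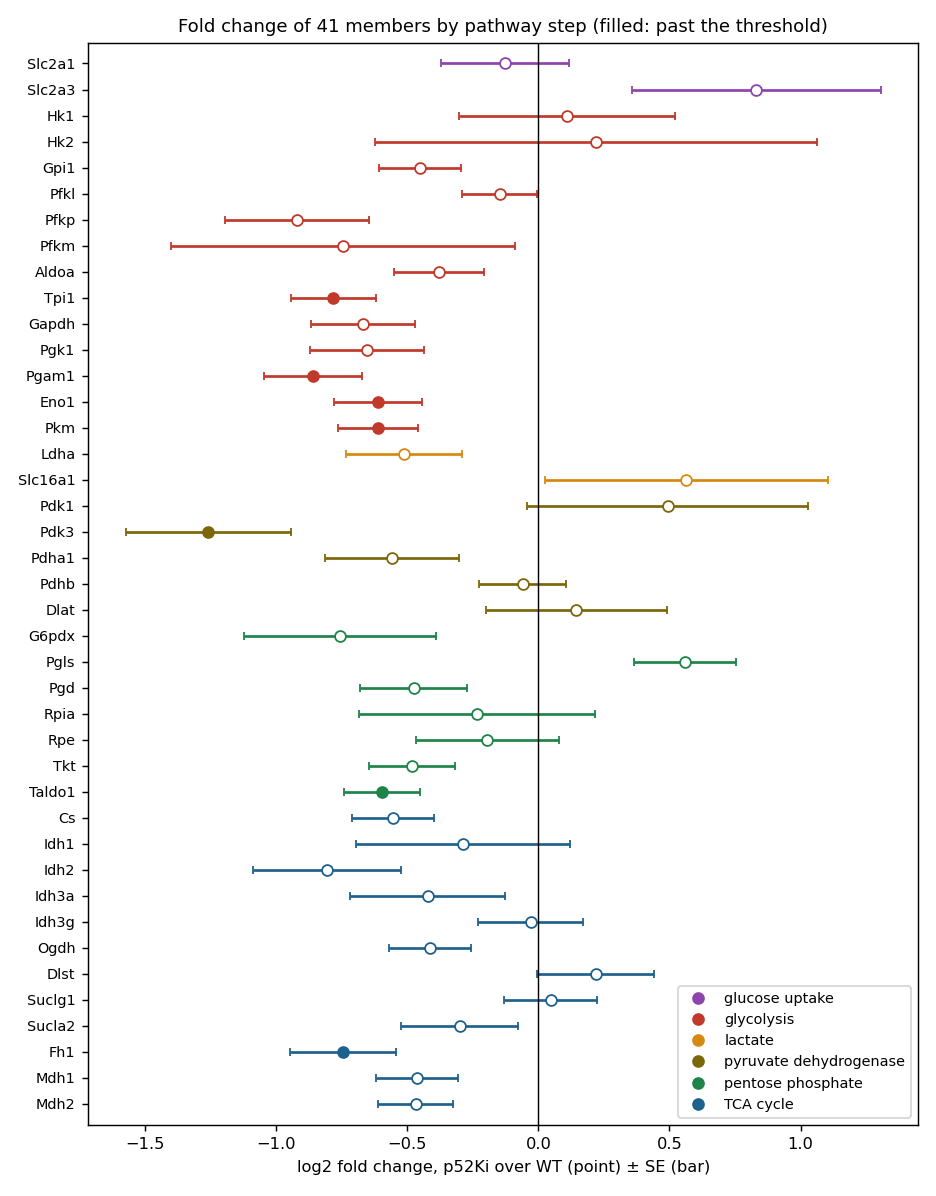
Log2 fold change of p52Ki over WT (horizontal axis) with its standard error for the 41 members tested, in pathway order and coloured by pathway step; filled points passed the threshold. All 7 filled points lie left of 0, and the lowest is Pdk3 at -1.26.

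Libraries held 4492160 to 6647650 counts in p52Ki and 7368604 to 7937579 in WT, and 15504 to 16634 genes against 14033 to 14793 genes were detected. Nfkb2 stood at 208 ± 40.9 CPM in p52Ki and 136 ± 34.0 CPM in WT (SD, n = 5 and 4, edgeR adjusted p = 0.0987), and gene counts do not separate transcripts of the modified allele. CPM are counts scaled to library size with TMM factors. All 8 B cell markers were counted, and their summed level was 11680 to 15220 CPM in p52Ki and 10210 to 11400 CPM in WT. The 16 germinal centre B cell genes were all counted too, at sums of 2016 to 3431 CPM in p52Ki and 5491 to 6935 CPM in WT, and 12 of them fell. The 12 resting follicular B cell genes summed to 3766 to 5419 CPM in p52Ki and 2267 to 2760 CPM in WT, and 8 of them rose. In bulk RNA, fewer cells of a type and less RNA of a gene per cell cannot be told apart.

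Neither glucose transporter passed the test. Slc2a1 encodes GLUT1, the main basal glucose transporter of lymphocytes, and stood at 45.6, 42.5, 43.1, 31.6 and 57.8 CPM in p52Ki replicates 1 to 5, against 56.7, 56.4, 42.1 and 37.4 CPM in WT replicates 1 to 4. These ranges overlap, with a log2 fold change of -0.13 ± 0.24 (SE, edgeR adjusted p = 0.840). Slc2a3 encodes GLUT3, a transporter of high affinity, and stood at 36.7, 23.1, 25.7, 19.5 and 26.3 CPM in p52Ki, against 5.12, 9.55, 13.8 and 30.5 CPM in WT. WT replicate 4 alone reached the p52Ki range, and Slc2a3 did not pass (log2 fold change 0.83 ± 0.47, edgeR adjusted p = 0.350).

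Among the 13 glycolysis members 4 were called lower (30.8%, against 4.04% of all genes) and 0 higher, and their median log2 fold change was -0.61. Tpi1, triose phosphate isomerase, interconverts the products of the aldolase step (chromosome 6, 124810586 to 124814296, GRCm38). It stood at 160, 270, 185, 224 and 206 CPM in p52Ki replicates 1 to 5, against 364, 317, 406 and 351 CPM in WT replicates 1 to 4. No p52Ki library reached a WT library, and Tpi1 fell by 0.78 on the log2 scale (SE 0.16, edgeR adjusted p = 0.0141), a fold of 0.581. Its call held in each of the 9 fits that left out 1 library (edgeR adjusted p 0.0113 to 0.0439). Its exons overlap those of Spsb2 on the other strand over 34 bases, and the kit does not mark strand.

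Pgam1, phosphoglycerate mutase, moves the phosphate of 3-phosphoglycerate (chromosome 19, 41911923 to 41918660). It stood at 94.7, 127, 131, 178 and 141 CPM in p52Ki and at 296, 209, 244 and 227 CPM in WT, again without overlap. It fell by 0.86 on the log2 scale (SE 0.19, edgeR adjusted p = 0.0168), and the call ended without WT replicate 1, the highest library (edgeR adjusted p = 0.0510). Eno1, enolase, makes phosphoenolpyruvate (chromosome 4, 150236721 to 150248879) and stood at 715, 986, 569, 835 and 661 CPM in p52Ki and 1389, 965, 1093 and 1155 CPM in WT. Here p52Ki replicate 2 lay above WT replicate 2, and Eno1 fell by 0.61 on the log2 scale (SE 0.17, edgeR adjusted p = 0.0427). In fits without 1 library, the call of Eno1 was kept without WT replicate 2 or p52Ki replicate 2. It was lost when any of WT replicates 1, 3 and 4 or of p52Ki replicates 1, 3, 4 and 5 was left out (edgeR adjusted p up to 0.120).

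Pkm, pyruvate kinase, makes pyruvate and ATP in the last step (chromosome 9, 59656368 to 59679375). It stood at 595, 830, 605, 814 and 510 CPM in p52Ki, against 977, 1018, 1078 and 1031 CPM in WT, which agreed closely with each other. No library of one genotype reached the other, and Pkm fell by 0.61 on the log2 scale (SE 0.15, edgeR adjusted p = 0.0288). Its call was kept without p52Ki replicate 2 or 4, and was lost when any WT library or any of p52Ki replicates 1, 3 and 5 was left out (edgeR adjusted p up to 0.0825). Counts per gene do not separate the splice forms of Pkm. Exons of Pkm overlap those of Gm49759 on the same strand over 767 bases. Uncalled members also have long overlaps on the other strand, such as Pfkp with Pitrm1 (748 bases) and Gpi1 with Gm26762 (741). Pdha1 overlaps Map3k15 (603) and G6pdx overlaps Ikbkg (418) in the same way.

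Among the other 9 glycolysis members none passed. Gapdh, which oxidises glyceraldehyde 3-phosphate, was at 304, 540, 369, 622 and 489 CPM in p52Ki and 726, 631, 881 and 721 CPM in WT, with a log2 fold change of -0.67 ± 0.20 (edgeR adjusted p = 0.0598). Its genotypes did not overlap, by a margin of 622 to 631 CPM. Pfkp, the platelet form of phosphofructokinase at the committed step, likewise did not overlap, at 95.1, 278, 124, 212 and 144 CPM in p52Ki and 398, 288, 288 and 319 CPM in WT (log2 fold change -0.92 ± 0.27, edgeR adjusted p = 0.0613). Without p52Ki replicate 2, its highest p52Ki library, Pfkp passed (edgeR adjusted p = 0.0207), and so did Gapdh without p52Ki replicate 4 (edgeR adjusted p = 0.0272). Pgk1, the first enzyme of the pathway to make ATP, had a log2 fold change of -0.65 ± 0.22, Gpi1, which isomerises glucose 6-phosphate, of -0.45 ± 0.16, and Aldoa, which cleaves fructose 1,6-bisphosphate, of -0.38 ± 0.17 (edgeR adjusted p = 0.0922, 0.104 and 0.225). Pgk1 passed without WT replicate 2 (edgeR adjusted p = 0.0438). Pfkl, the liver form of phosphofructokinase, was at 157 ± 18.9 CPM in p52Ki and 173 ± 14.6 CPM in WT (SD, n = 5 and 4, log2 fold change -0.15 ± 0.14), and Pfkm, the muscle form, had a log2 fold change of -0.75 ± 0.66 (SE, edgeR adjusted p = 0.583).

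**Figure D2:**
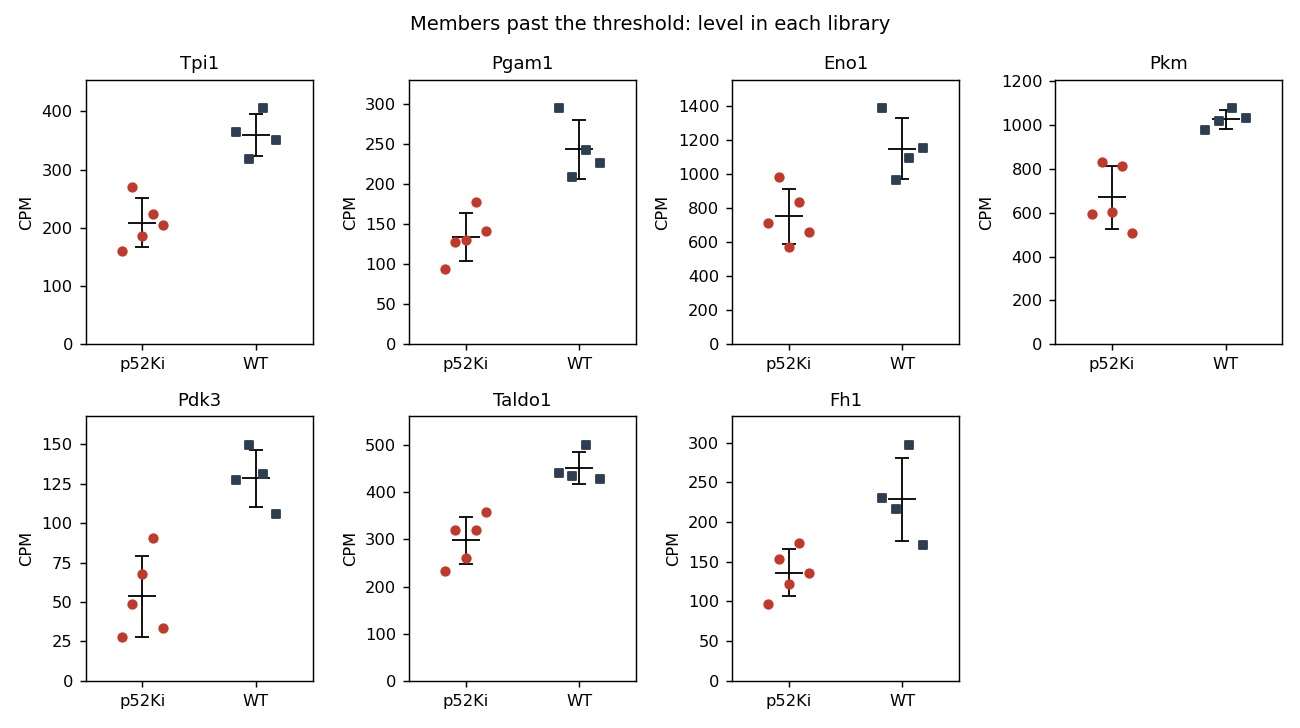
Level in CPM of the 7 members that passed the threshold, 1 panel per gene, with p52Ki libraries as circles and WT libraries as squares; horizontal marks are means and bars are SD (n = 5 and 4). The genotypes are apart in Tpi1, Pgam1, Pkm, Pdk3 and Taldo1, and overlap in Eno1 and Fh1.

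The hexokinases, which trap glucose in the cell as its phosphate, were with Pfkm the least abundant glycolysis members for their length. Hk1 stood at 37.3, 36.7, 28.7, 41.5 and 10.4 CPM in p52Ki and 48.6, 22.3, 23.3 and 20.7 CPM in WT. Hk2, the inducible form, stood at 4.07, 15.9, 6.78, 20.2 and 0.652 CPM in p52Ki and 13.4, 9.68, 1.71 and 7.96 CPM in WT. Both spread widely within each genotype, with log2 fold changes of 0.11 ± 0.41 and 0.22 ± 0.84 (SE, edgeR adjusted p = 0.925 and 0.927). Per kilobase of exon, Hk1 had 3.63 CPM in p52Ki and 3.37 CPM in WT, while Eno1 had 140 CPM per kilobase in p52Ki and 214 in WT. Aldoa, at 187 in p52Ki and 244 in WT, and Ldha, at 199 in p52Ki and 285 in WT, were the most abundant members per kilobase when reads on near-identical copies, which are many for Gapdh, are left out.

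The promoters of the 4 called members of smallest p are printed as a description, and a shared cause of their lower levels was not tested. They are the 250 bases before the RefSeq transcription start on GRCm38, 5′ to 3′ on the strand of the gene: chr6:124814159-124814408 (minus strand) for Tpi1, chr19:41911621-41911870 (plus) for Pgam1, chr7:141391910-141392159 (plus) for Taldo1 and chr9:59656326-59656575 (plus) for Pkm, which has 2 annotated starts. Capitals mark ACGTG or GCGTG on either strand (CACGC is GCGTG on the other), cores to which hypoxia-inducible factors can bind. The windows were also searched on both strands for CCGGAA, a core of ETS factors, and CACGTG, the E-box of MYC, which contains ACGTG.
Tpi1: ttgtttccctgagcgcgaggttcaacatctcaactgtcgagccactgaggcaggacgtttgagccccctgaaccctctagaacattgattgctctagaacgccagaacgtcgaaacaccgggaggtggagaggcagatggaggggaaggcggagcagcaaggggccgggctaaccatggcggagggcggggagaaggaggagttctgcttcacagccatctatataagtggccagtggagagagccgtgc
Pgam1: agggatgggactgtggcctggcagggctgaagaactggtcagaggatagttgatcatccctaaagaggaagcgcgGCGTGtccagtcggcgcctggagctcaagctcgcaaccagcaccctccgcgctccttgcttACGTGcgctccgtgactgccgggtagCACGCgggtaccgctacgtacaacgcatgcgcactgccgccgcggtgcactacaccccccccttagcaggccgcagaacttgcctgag
Taldo1: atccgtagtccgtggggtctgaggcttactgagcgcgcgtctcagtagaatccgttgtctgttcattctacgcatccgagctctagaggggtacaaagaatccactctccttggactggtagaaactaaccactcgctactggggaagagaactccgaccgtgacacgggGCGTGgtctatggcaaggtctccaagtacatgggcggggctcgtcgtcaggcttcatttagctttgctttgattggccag
Pkm: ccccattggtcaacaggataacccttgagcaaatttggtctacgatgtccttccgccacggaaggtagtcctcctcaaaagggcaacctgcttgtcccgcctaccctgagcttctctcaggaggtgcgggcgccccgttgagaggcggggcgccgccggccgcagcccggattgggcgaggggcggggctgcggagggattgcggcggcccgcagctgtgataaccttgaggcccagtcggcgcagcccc
The Tpi1 and Pkm windows hold none of the marked letters, and neither CCGGAA nor CACGTG occurs in any of the 4. By the gene coordinates given above, from another annotation, Tpi1 begins at 124814296 and Pkm at 59656368, inside these windows. Part of each of these 2 windows is thus transcribed sequence in that annotation. Over the 7 called members CCGGAA occurred in 0 and CACGTG in 0, against 12% and 6.02% of 32851 promoters of this length, and the NF-kB consensus also occurred in 0, against 7.25%. GCGTG occurred in 5 of the 7 and ACGTG in 3, against 28.2% and 16.6% of all promoters. In these counts and those over all members, a gene counted when any of its annotated starts held the letters. Shares of all promoters are per start, so genes with several starts had more chances and the units differ. Of the 39 tested members with a promoter in the table, 27 held GCGTG, 14 ACGTG, 4 CACGTG, 6 CCGGAA, 7 the NF-kB consensus and 31 the GC box GGGCGG (32.7% of all promoters). The printed windows of Tpi1, Pgam1, Taldo1 and Pkm held 58.4, 64.0, 54.4 and 66.4% G and C. Shares of promoters with these letters were not adjusted for base content. A match describes letters only, and binding was not measured.

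At the branch to lactate, Ldha, which reduces pyruvate, stood at 406, 933, 561, 865 and 535 CPM in p52Ki, against 972, 807, 997 and 992 CPM in WT. p52Ki replicates 2 and 4 lay above WT replicate 2, and Ldha did not pass (log2 fold change -0.51 ± 0.22, edgeR adjusted p = 0.202). Ldhb, the heart form, had 1 count in p52Ki and 0 in WT, so nearly all reads counted to these 2 genes were those of Ldha. With near-identical copies summed, the share of Ldha was 97.2% ± 2.64 in p52Ki and 99.8% ± 0.419 in WT (SD, n = 5 and 4, exact permutation p = 0.127, adjusted 0.236). Slc16a1, the lactate transporter MCT1, stood at 25.7, 27.5, 12.1, 28.2 and 23.3 CPM in p52Ki and 13.1, 9.41, 36.1 and 4.51 CPM in WT (log2 fold change 0.56 ± 0.54, edgeR adjusted p = 0.621). Slc16a3, the exporter MCT4, had 32 counts in p52Ki and 68 in WT, mostly in 1 library of each genotype, and was not tested.

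Pyruvate dehydrogenase converts pyruvate to acetyl-CoA, and its kinases switch it off. Of 5 members of this step, 1 fell (20.0%, against 4.04% of all genes), the kinase Pdk3 (chromosome X, 93764607 to 93832201). Pdk3 stood at 27.6, 48.9, 68.0, 90.4 and 33.2 CPM in p52Ki, against 127, 150, 131 and 106 CPM in WT. Each p52Ki library lay below every WT library. Pdk3 fell by 1.26 on the log2 scale (SE 0.32, edgeR adjusted p = 0.0298), to a fold of 0.418, the lowest of all 41 members. The call was kept without p52Ki replicate 3 or 4 and was lost when any WT library or any of p52Ki replicates 1, 2 and 5 was left out (edgeR adjusted p up to 0.0714). The kinase Pdk1 stood at 10.5, 31.4, 56.7, 16.9 and 9.13 CPM in p52Ki and 17.7, 24.6, 10.95 and 17.5 CPM in WT, and did not pass (log2 fold change 0.49 ± 0.54, edgeR adjusted p = 0.678).

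Among the subunits of the enzyme itself, Pdha1, the catalytic subunit that Pdk3 phosphorylates, had a log2 fold change of -0.56 ± 0.26, its partner Pdhb of -0.06 ± 0.17 and the acetyltransferase core Dlat of 0.14 ± 0.34 (edgeR adjusted p = 0.233, 0.897 and 0.877). None passed.

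In the pentose phosphate pathway 1 of 7 members was called lower (14.3%, against 4.04% of all genes) and 0 higher, and the median log2 fold change was -0.48. Taldo1, transaldolase of the branch that returns sugars to glycolysis (chromosome 7, 141392199 to 141402968), stood at 233, 320, 261, 320 and 358 CPM in p52Ki and 440, 434, 501 and 428 CPM in WT. The genotypes did not overlap, and Taldo1 fell by 0.60 on the log2 scale (SE 0.14, edgeR adjusted p = 0.0260). Its call was kept without p52Ki replicate 2, 4 or 5 and was lost when any WT library or either of p52Ki replicates 1 and 3 was left out (edgeR adjusted p up to 0.0775). Tkt, transketolase, its partner in that branch, did not overlap either, at 224, 397, 325, 382 and 359 CPM in p52Ki and 452, 445, 461 and 526 CPM in WT, but did not pass (log2 fold change -0.48 ± 0.16, edgeR adjusted p = 0.0994).

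The oxidative branch makes NADPH. G6pdx, which begins it, had a log2 fold change of -0.76 ± 0.37, and Pgd, which ends it, of -0.48 ± 0.20 (edgeR adjusted p = 0.262 and 0.193). Pgls, the lactonase between them, stood at 136, 96.1, 89.95, 119 and 97.1 CPM in p52Ki and 63.8, 62.8, 91.9 and 74.1 CPM in WT. Only WT replicate 3 reached the p52Ki range, and Pgls did not pass (log2 fold change 0.56 ± 0.20, edgeR adjusted p = 0.107). Pgls passed in DESeq2, the one member that any fit called higher. Its exons overlap those of Fam129c on the same strand over 776 of 3770 bases. The part of Fam129c reads in the level of Pgls was not tested. Pgd passed without p52Ki replicate 4, its highest p52Ki library (edgeR adjusted p = 0.0206). Rpia and Rpe, which interconvert the pentoses, had log2 fold changes of -0.23 ± 0.45 and -0.19 ± 0.27.

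The 12 TCA cycle members had a median log2 fold change of -0.42, and 1 was called lower (8.33%, against 4.04% of all genes) and 0 higher. Fh1, fumarase (chromosome 1, 175600374 to 175625635), stood at 97.1, 154, 122, 173 and 135 CPM in p52Ki and 230, 216, 297 and 172 CPM in WT. p52Ki replicate 4 and WT replicate 4 lay side by side, and Fh1 fell by 0.75 on the log2 scale (SE 0.20, edgeR adjusted p = 0.0416). The call was kept without WT replicate 4 or p52Ki replicate 4 and was lost when any of WT replicates 1, 2 and 3 or of p52Ki replicates 1, 2, 3 and 5 was left out (edgeR adjusted p up to 0.133). Cs, citrate synthase at the entry, did not overlap between genotypes, at 202, 298, 274, 327 and 291 CPM in p52Ki and 465, 335, 423 and 413 CPM in WT, and narrowly missed the threshold (log2 fold change -0.55 ± 0.16, edgeR adjusted p = 0.0510). Cs passed without WT replicate 2 or p52Ki replicate 4 (edgeR adjusted p as low as 0.0445).

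The malate dehydrogenases Mdh2 and Mdh1, of mitochondria and cytosol, had nearly equal log2 fold changes of -0.47 ± 0.14 and -0.46 ± 0.16 (edgeR adjusted p = 0.0685 and 0.0934). Mdh2 passed without p52Ki replicate 2 (edgeR adjusted p = 0.0338). Ogdh, of the oxoglutarate dehydrogenase complex, had -0.42 ± 0.16, while Dlst, its succinyltransferase core, had 0.22 ± 0.22. Idh2, the mitochondrial NADP-linked isocitrate dehydrogenase, stood at 67.8, 39.2, 61.0, 50.4 and 80.6 CPM in p52Ki and 116, 69.5, 75.7 and 157 CPM in WT (log2 fold change -0.81 ± 0.28, edgeR adjusted p = 0.109). Idh1, its cytosolic relative, stood at 23.7, 30.5, 13.4, 17.6 and 18.9 CPM in p52Ki and 18.6, 29.6, 11.4 and 41.9 CPM in WT (-0.29 ± 0.41, edgeR adjusted p = 0.770). The remaining members, Idh3a, Idh3g, Sucla2 and Suclg1, had log2 fold changes between -0.42 and 0.05 and none passed.

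Isoenzyme shares set each library's forms of one enzyme against each other, per kilobase of exon, so that library scaling cancels. Pfkp made up 25.2, 41.5, 25.6, 40.7 and 30.7% of phosphofructokinase in p52Ki and 48.8, 45.3, 41.9 and 47.2% in WT, without overlap. Its means of 32.7% ± 7.95 in p52Ki and 45.8% ± 2.99 in WT (SD, n = 5 and 4) differed at an exact two-sided permutation p of 0.0317, or 0.139 adjusted over the 7 shares tested. Pdk1 made up 11.1, 17.5, 21.5, 5.78 and 8.29% of the Pdk1 and Pdk3 total in p52Ki and 4.38, 5.14, 2.68 and 5.17% in WT, also without overlap (means 12.8% ± 6.53 in p52Ki and 4.34% ± 1.17 in WT, SD, n = 5 and 4, exact permutation p = 0.0397, adjusted 0.139). Neither share passed after adjustment. The smallest p that 126 splits of 9 libraries can give is 0.00794.

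The other pairs overlapped between genotypes. Slc2a1 made up 71.9 to 82.0% of the 2 glucose transporters in p52Ki and 71.7 to 95.8% in WT (exact permutation p = 0.135, adjusted 0.315). Hk2 made up 8.2 to 41% of the hexokinases in p52Ki and 9.47 to 38.3% in WT (exact p = 0.802). Idh1 made up 17.0 to 42.1% of Idh1 and Idh2 in p52Ki and 12.3 to 28.5% in WT (exact p = 0.302), and Slc16a3 averaged 4.94% ± 8.66 of its pair in p52Ki and 8.96% ± 16.3 in WT (SD, n = 5 and 4, exact p = 0.643).

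**Figure D3:**
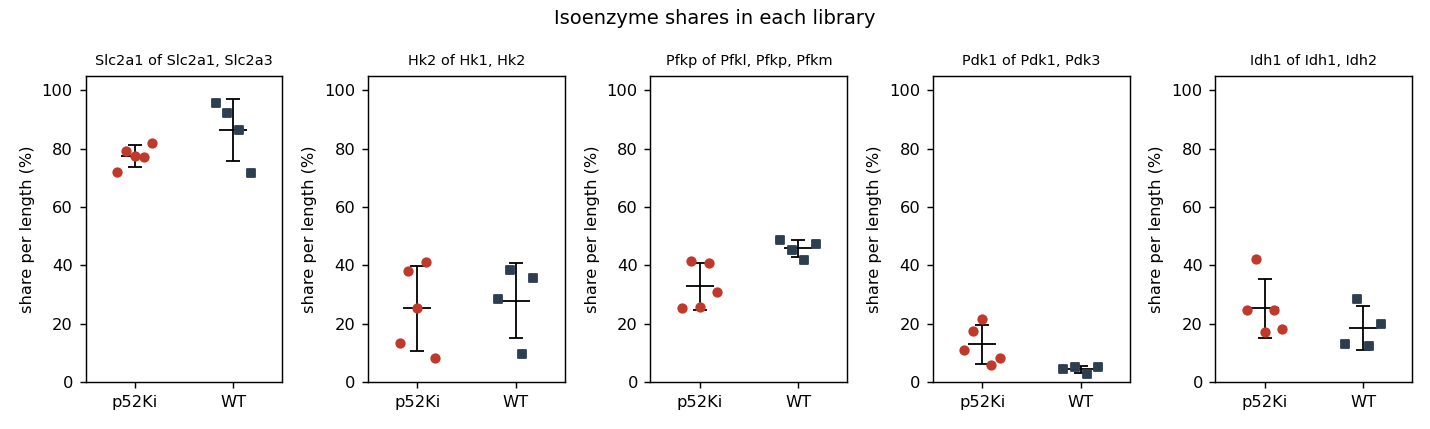
Share of 1 isoenzyme in the summed per-length level of its pair or trio, in percent, for 5 sets; circles are p52Ki libraries, squares WT libraries, marks and bars mean and SD (n = 5 and 4). The Pfkp and Pdk1 shares do not overlap between genotypes, while the other 3 do.

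Several members share reads with near-identical copies, mostly processed pseudogenes. A copy was taken as another gene with at least 90% identity over at least 300 bases of the coding sequence. Gapdh had 176 copies in the count table's annotation, 167 of them pseudogenes, which held 49.4% of the reads of Gapdh and its copies. That share was 48.9 to 52% in p52Ki libraries and 48.0 to 49.2% in WT libraries. The plot of both shows Gapdh and its summed copies at nearly the same level in each library. With copies summed, Gapdh stood at 943 ± 250 CPM in p52Ki and 1434 ± 208 CPM in WT (SD, n = 5 and 4) and again did not pass (log2 fold change -0.60, edgeR adjusted p = 0.0755).

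Copies held 7.54% of the reads for Pgam1, 3.65% for Eno1, 2.27% for Pgk1 and under 0.4% for the other tested members that have one. With copies summed, Pgam1, Eno1, Pkm and Tpi1 kept their calls (log2 fold changes -0.84, -0.60, -0.59 and -0.77, edgeR adjusted p = 0.0158, 0.0452, 0.0305 and 0.0148). Ldhb had 1 count in all and its copy Gm5514, a pseudogene with 98.0% identity, had 270, at 12.5, 10.2, 14.1, 0 and 1.96 CPM in p52Ki and 0, 0, 0 and 3.98 CPM in WT. Which locus gave these reads cannot be told from counts.

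**Figure D4:**
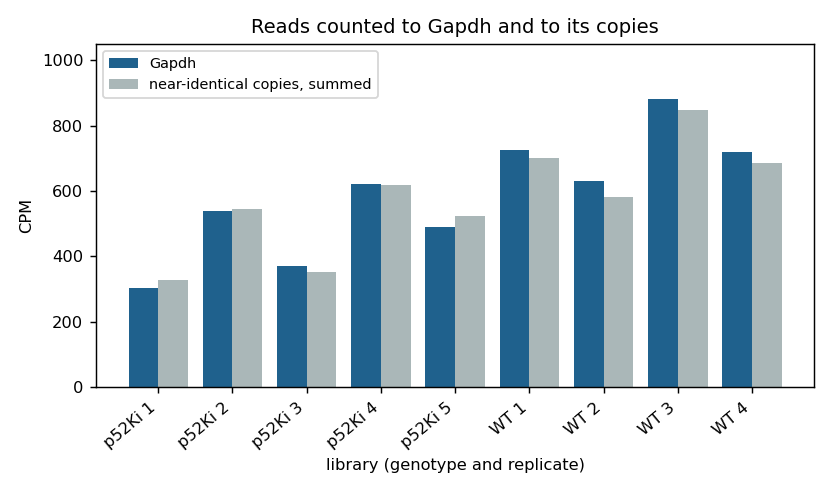
Level in CPM (vertical axis, from 0) of Gapdh and of its 176 near-identical copies summed, in each library. The paired bars are nearly equal in every library, with copies at 328 to 617.9 CPM in p52Ki and 582 to 848 CPM in WT.

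Of the rest of the same pathways and their regulators, 83 of 118 listed genes were tested, and 3 fell and 2 rose, near the shares of all genes (4.04% and 4.49%). Direction differed by list. Log2 fold changes were below 0 in 8 of 10 further pentose phosphate genes and 16 of 20 further TCA genes (medians -0.49 and -0.31). They were below 0 in 6 of 13 further glycolysis genes, 3 of 8 of pyruvate entry and 10 of 24 regulators. In the pentose phosphate list Dera, which cleaves deoxyribose phosphate, fell by 0.80 on the log2 scale, and Prps1l3, a copy of Prps1 (97.0% identity), which makes the nucleotide precursor PRPP, fell by 0.89 (edgeR adjusted p = 0.0231 and 0.0266). Reads of Prps1l3 and Prps1 may be exchanged, and Prps1 itself was at 74.2 ± 33.5 CPM in p52Ki and 97.2 ± 9.48 CPM in WT (SD, n = 5 and 4, edgeR adjusted p = 0.606). Sdha, the flavoprotein of succinate dehydrogenase that feeds fumarase, fell to 406 ± 58.8 CPM in p52Ki, against 610 ± 113 CPM in WT (SD, n = 5 and 4, log2 fold change -0.59 ± 0.16, edgeR adjusted p = 0.0377). The call of Dera was lost when any of WT replicates 1 and 4 or of p52Ki replicates 4 and 5 was left out (edgeR adjusted p 0.0505 to 0.0832). Prps1l3 stayed called in the fits that left out WT replicate 4 and p52Ki replicate 3, and was not called with any other library left out (edgeR adjusted p up to 0.0775). Sdha stayed called in the fits that left out replicate 4 of either genotype, and was not called with any other library left out (edgeR adjusted p up to 0.110).

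Pdk2, another kinase of pyruvate dehydrogenase, was counted in p52Ki alone. It stood at 13.9, 13.4, 12.3, 7.66 and 4.56 CPM in p52Ki replicates 1 to 5 and at 0 in each WT library, 319 counts against 0. This is at least 102-fold higher, against a floor of 3 counts over the summed WT libraries (0.102 CPM), a bound that covers counting error only. Pdk2 rose (edgeR adjusted p = 0.00337) and kept its call in the 9 fits that left out 1 library (edgeR adjusted p 0.00436 to 0.0119). Its level was too low for the filter of 10 CPM in 4 libraries. Other genes of low count were also counted in p52Ki alone, such as Slc16a7, Ppargc1a and Mycn (96, 106 and 89 counts). Hkdc1, Mlxipl and Csl were counted in WT alone (38, 11 and 2 counts).

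Mlxip, a glucose-sensing transcription factor also called MondoA, rose to 162, 130, 178, 136 and 100 CPM in p52Ki, against 61.0, 76.4, 98.4 and 85.1 CPM in WT (log2 fold change 0.82 ± 0.21, edgeR adjusted p = 0.0320). Mlxip stayed called in the fits that left out WT replicate 3, p52Ki replicate 4 and p52Ki replicate 5, and was not called with any other library left out (edgeR adjusted p up to 0.0841). Txnip, a known target of it that restrains glucose uptake, stood at 206 CPM in p52Ki and 129 CPM in WT on average and did not pass (log2 fold change 0.68, edgeR adjusted p = 0.0985). Hif1a, which induces glycolytic genes in low oxygen, had a log2 fold change of -0.11 (edgeR adjusted p = 0.845), and Myc, which induces them in growing cells, averaged 157 CPM in p52Ki and 113 CPM in WT (edgeR adjusted p = 0.248).

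Cell cycle genes were lower in the same libraries. Of 24 S phase genes 18 fell and of 24 G2 and M phase genes 18 fell, with medians of -0.94 and -1.28 on the log2 scale. Summed over the list, S phase genes stood at 3021, 4940, 4017, 6380 and 3451 CPM in p52Ki replicates 1 to 5, against 10100, 8306, 8344 and 8665 CPM in WT replicates 1 to 4. The 13 glycolysis members summed to 3026, 4509, 3092, 4207 and 3239 CPM in p52Ki, against 5766, 4778, 5660 and 5544 CPM in WT. p52Ki replicates 2 and 4 had the highest p52Ki sums in both lists, in opposite order. WT replicate 2 had the lowest WT sum in both, but WT replicate 3 was nearly level with it in S phase (8344 against 8306 CPM).

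Sums by step are given as a description, since no test compared the steps. Glycolysis summed in p52Ki to 66.5% of its WT mean, pentose phosphate genes to 74.1%, TCA genes to 76.8% and pyruvate dehydrogenase genes to 77.5%, against 49.3% for S phase and 41.5% for G2 and M phase genes. The pair of glucose transporters summed to 111.8% of its WT mean. The rest of the uptake list, at 130.7%, was mostly Txnip, which restrains uptake (206 of 245 CPM in p52Ki and 129 of 187 CPM in WT). Of the 6 tested genes of this list, 4 had a log2 fold change below 0. The rest of glycolysis summed to 105.9%, and its largest part was Gpd1l (201 of 501 CPM in p52Ki and 184 of 474 CPM in WT). The rest of the pentose phosphate list summed to 69.0%, at 305 to 489 CPM in p52Ki and 540 to 686 CPM in WT. The rest of the TCA list summed to 76.6%, at 2442 to 3229 CPM in p52Ki and 3240 to 3924 CPM in WT. Neither overlapped between genotypes. Lactate genes, at 71.3%, overlapped between genotypes, from 432 to 960 CPM in p52Ki and from 816 to 1034 CPM in WT, and pyruvate dehydrogenase genes overlapped at 346 to 500 CPM in p52Ki and 497 to 644 CPM in WT. Cell cycle sums did not overlap between genotypes, and their part in the metabolic differences was not tested.

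**Figure D5:**
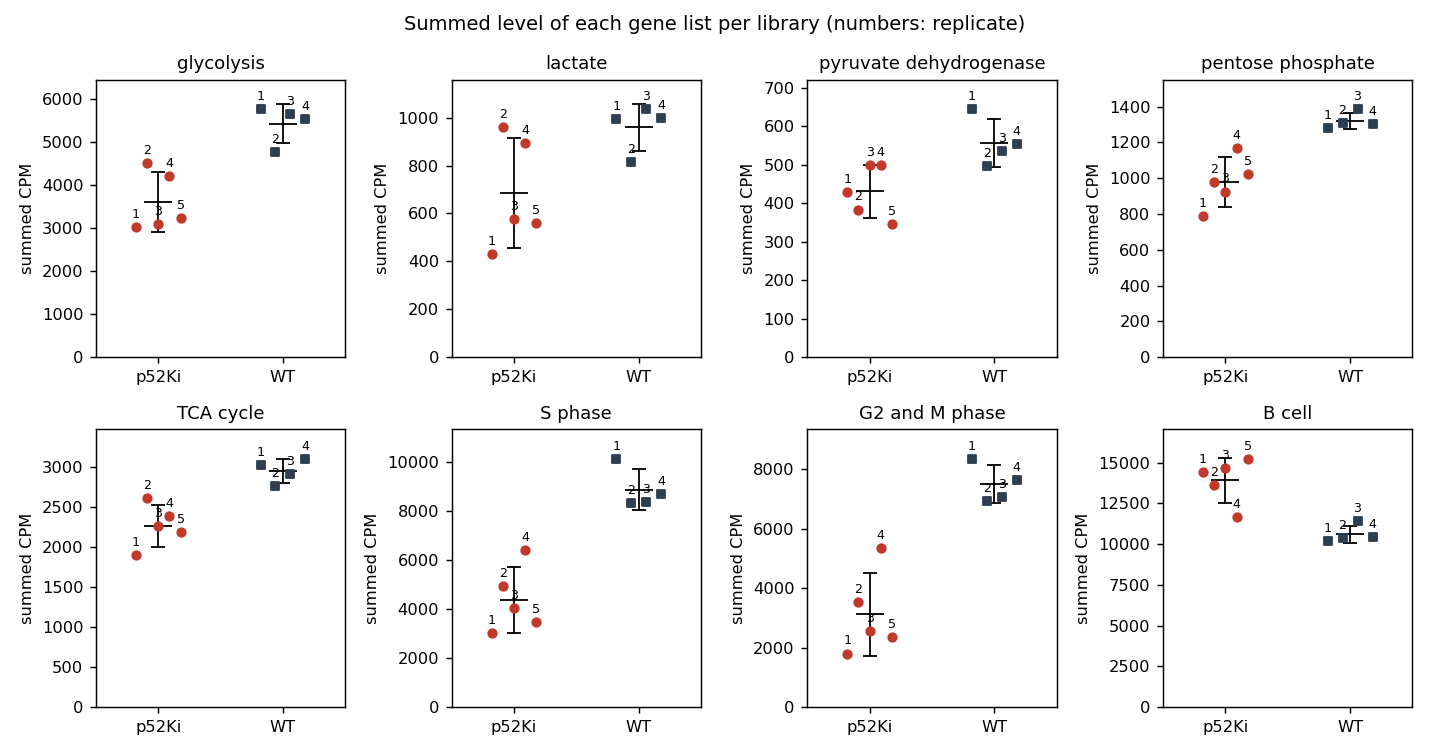
Summed CPM of each gene list in every library, with replicate numbers beside the points; circles are p52Ki, squares WT, marks and bars mean and SD (n = 5 and 4), and each vertical axis starts at 0. Glycolysis, pentose phosphate, TCA, S phase and G2 and M phase sums of p52Ki lie below every WT sum, and B cell marker sums lie above.

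Sums of immediate early and heat shock genes, which can respond to handling, did not overlap between genotypes. Sums of 17 immediate early genes were 3873 to 4492 CPM in p52Ki and 2523 to 3185 CPM in WT, and sums of 10 heat shock genes 5718 to 7505 CPM in p52Ki and 7563 to 10690 CPM in WT. Of 16 immediate early genes tested 8 rose and 0 fell, and of 10 heat shock genes 3 fell and 0 rose. Hspa8 was the largest part of the heat shock sum. Hspa1a averaged 15.5 CPM in p52Ki and 299 CPM in WT (edgeR adjusted p = 0.00266), and Hspa1b 2.30 and 41.6 CPM (edgeR adjusted p = 0.00456). Neutrophil markers summed to at most 1.41 CPM in p52Ki and 5.97 CPM in WT, with S100a8, S100a9, Retnlg, Mpo and Elane at 0 in all libraries. T cell markers summed to 76.9 to 204 CPM in p52Ki and 192 to 256 CPM in WT, with 9 of 10 too low to test. Nearly all of that sum was Lck, at 128 CPM in p52Ki and 213 CPM in WT on average, and Cd3e, Cd3d, Cd4 and Cd8a were near 0. Macrophage and monocyte markers summed to 123 to 291 CPM in p52Ki and 79.5 to 183 CPM in WT, which overlap, and none of the 9 tested passed. In Lyz2 and Ly6c2, however, every p52Ki library lay above every WT library. They averaged 28.5 and 26.4 CPM in p52Ki and 7.52 and 3.53 CPM in WT (edgeR adjusted p = 0.0685 and 0.0577). Of the 9 tested, 2 had a log2 fold change below 0. The 8 stroma and endothelium markers summed to 114 to 265 CPM in p52Ki and 39.3 to 107 CPM in WT, nearly all of it Pecam1, which rose, while Col1a1, Col1a2, Col3a1 and Ccl19 were at 0 in all libraries. NK cell markers summed to 1.06 to 20.5 CPM in p52Ki and 0 to 11.9 CPM in WT, which overlap. Dendritic cell markers summed to 13.2 to 40.1 CPM in p52Ki and 45.2 to 67.7 CPM in WT, mostly Flt3, which fell to 21.6 CPM in p52Ki, against 58.5 CPM in WT. Plasma cell markers summed to 873 to 1502 CPM in p52Ki and 1573 to 2057 CPM in WT, but of the 8 tested 2 rose and 1 fell. Jchain fell to 562 CPM in p52Ki, against 1252 CPM in WT, while Irf4 rose to 149 CPM in p52Ki, against 34.6 CPM in WT, and Fkbp11 rose as well. The part of these differences and of depth in the results was not tested.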

How the data were processed

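Counts per gene were deposited by the authors without normalization for 55536 genes in 9 libraries, and log2 CPM values for 12849 of them. Per the submitters' processing notes, the tools were HISAT2 2.1.0, featureCounts from Subread 1.6.2 and SAMtools 1.8, and the build GRCm38. The sources used here do not state the annotation release, strand setting or treatment of reads with several hits. Per the labels' protocols, cDNA was amplified by PCR from low-input RNA with SMART-Seq v2, which marks neither strand nor molecule. The floor used for Pdk2 covers counting error only, while standard errors and SD include the scatter among libraries.

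The deposited log2 values equalled edgeR's log CPM with TMM scaling and a prior count of 2 (largest difference 4.97e-14). Counts were tested in R 4.3.3 with edgeR 4.0.16: filterByExpr, TMM, a robust quasi-likelihood F test on all 9 libraries with no covariate, two-sided, adjusted by Benjamini-Hochberg over 12849 genes, threshold 0.05. A standard error is the log2 fold change divided by the root of its F statistic. Fold changes are p52Ki over WT, and levels are CPM with TMM-scaled library sizes. Isoenzyme shares used exons merged per gene from GENCODE M21, in which all 55536 identifiers were found, and exact permutation over 126 splits. Promoters are from RefSeq (GRCm38.p6), copies from blastn of coding sequences against GENCODE transcripts.

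The members, lists and tests were chosen with earlier results of these data known. Called members, the member of smallest p in each step and isoenzymes are given in every library; members beyond these that are given so, and Txnip, Hif1a, Myc and Prps1, were chosen after their values were seen. On simulated counts for this comparison (12206 genes tested), the test found 1.54% of genes altered 1.5-fold, 15.4% at 2-fold and 48.4% at 4-fold, with 4.65% false calls. The altered genes, 62 to 65 per fold, were drawn at random from genes of all levels. With so few altered, the adjusted threshold was harder to reach than in the data, where 1096 genes passed. These rates therefore do not give the power for the members. The biological coefficient of variation was 0.567. Alternatives were DESeq2 1.42.0 and its size factors, limma 3.58.1 (voom with quality weights, and trend on the deposited log2 values), other filters, leaving out antigen receptor genes, a replicate block, GC and length offsets, and each library left out. Summing near-identical copies was added after seeing the data.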

Additional observations from a re-analysis of the deposited data

Results flagged for a closer look

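In 108 sets of libraries of 1 genotype, 8 held a library far from the rest by Dixon's test, where chance gives about 1 in 20. In WT, Hk1 was at 48.6 CPM in replicate 1 against 20.7 to 23.3 CPM in the others. Ldha was at 807 CPM in WT replicate 2, against 972 to 997 CPM in the other WT libraries, and the sum over all members was lowest in the same library, at 10220 CPM against 11560 to 11770 CPM. Taldo1 was at 501 CPM in WT replicate 3, against 428 to 440 CPM. In p52Ki, Pgd was at 176 CPM in replicate 4, against 91.0 to 110 CPM, and Suclg1 at 209 CPM in replicate 5, against 132 to 151 CPM. The share of Slc16a3 in its transporter pair was 20.3% in p52Ki replicate 3, against 0 to 2.64%, and 33.3% in WT replicate 1, against 0 to 2.55%.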

How the results depend on the processing

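The fold changes of the 7 called members kept their direction in every alternative, and no member was called higher except Pgls in DESeq2. Counts of calls varied. DESeq2 called 1766 of all genes and 13 members, and limma-trend 1401 and 11, against 1096 and 7 in edgeR. With 1 library left out, 625 to 1108 genes, 1 to 9 members and 2 to 3 of the other pathway genes (5 in the full set) were called. Same-numbered libraries did not deviate together over all genes (correlations -0.042 to -0.009). The sources used here do not say whether the numbers pair libraries, and a pairing that touches only some genes was not tested. A replicate block left 129 genes, 0 members and 0 other pathway genes, and with the GC and length correction 148, 0 and 0. The block fits a term for each replicate number and leaves less information on scatter. Its part in the loss of calls was not tested. The share of higher calls was 75.2% under the block and 73.0% with both, against 52.6%, and the median log2 fold change of all genes was 0.18 without a filter on low counts. The median of the members ran from -0.50 to -0.37.

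Some members that were not called changed sign. Hk2 was at -0.14 in limma-trend, Idh3g at 0.01 with the 10 CPM filter and 0.02 after the GC and length correction, Suclg1 at -0.07 under the block and -0.04 with the correction too, and Pdhb at 0.01 with both. With 1 library left out, Hk2 ran from -0.23 to 0.56, Pdhb from -0.17 to 0.01, Dlat from -0.05 to 0.42, Pdk1 from -0.04 to 0.73, Rpia from -0.44 to 0.03, Idh1 from -0.51 to 0.09, Idh3g from -0.13 to 0.10 and Suclg1 from -0.06 to 0.20. The difference in the Hk2 share then ran from -8.79 to 1.6 percentage points and in the Slc16a3 share from -7.88 to 4.08. The cause was not tested. The test recovered few simulated 2-fold changes among genes of all levels. Its power for the members was not simulated, and small differences could go uncalled.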
